A study of Mus musculus with 18 samples.

Results

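Cells that did not carry reporter fluorescence were compared between 2 mouse embryonic stem cell lines, Nurr1::GFP and Hes5::GFP. The members are 6 arrays of the 18 in the series, chosen by their titles: 3 of Nurr1 negative cells and 3 of Hes5 negative cells. Both lines are of strain J1, and each carries a green fluorescent protein gene placed under the control of Nurr1 or Hes5 sequence on a bacterial artificial chromosome (BAC). Nurr1 is the protein made from Nr4a2. Every line was differentiated towards midbrain dopamine neurons and sorted by fluorescence at days 14 to 15, so the negative cells shared the culture, the medium and the sort with the positive cells of their own line. The other 12 arrays hold Hes5 positive, Nurr1 positive, Pitx3 positive and Pitx3 negative cells (Pitx3::YFP line), 3 arrays each. They served to estimate the spread between arrays and to show whether a difference was also present elsewhere. Nothing in the labels says how many clones stand behind a line or whether replicates are separate differentiations, and untransfected cells and unsorted cultures were not analysed here.

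A negative fraction is what a reporter leaves behind. Hes5 is a repressor switched on by Notch in neural progenitors, so the cells without its reporter can include neurons, undifferentiated stem cells and non-neural cells. Nurr1 marks newly born and mature dopamine neurons, so the cells without its reporter can include the progenitors that carry Hes5. A stem cell culture of this kind starts from pluripotent cells, which lose Pou5f1 and Nanog as they pass to neural progenitors. In the midbrain, floor plate progenitors express Lmx1a, Foxa2, Corin and Msx1, and proneural factors such as Neurog2 then start neurogenesis while Notch ligands such as Dll1 hold neighbouring cells back. Lines that are grown separately can also differ in imprinted genes and in chromosome content, independently of what the reporter sorts.

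Values are normalized log2 intensities, on which a difference of 1 is a change of 2-fold. Differences are Nurr1 negative minus Hes5 negative, from 1 limma fit to all 18 arrays, and a gene was called where its p, adjusted by Benjamini-Hochberg over the 12650 genes tested, was under 0.05. The 18 arrays were alike in depth, with 33.5% to 37.4% of probes above background (detection p-value under 0.01) and a median probe intensity of 40.6 to 60.2. Their number limits the precision. The Nurr1 negative arrays correlated with each other at 0.943 to 0.974 over the genes tested, and the Hes5 negative arrays at 0.876 to 0.947. In bulk samples such as these, fewer cells of a type and less RNA per cell cannot be told apart.

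Hes5 negative replicate 2 stood apart from the other arrays of its group. The labels contradict each other on it: the title and genotype put it among the cells without GFP, the source name among those with it. It is kept here as negative. Its reporter RNA, read by an EGFP probe, was 11.12, against 9.51 and 8.48 in replicates 1 and 3 and 13.54 to 13.73 in the Hes5 positive arrays. It correlated with replicates 1 and 3 at 0.876 and 0.922, while these correlated at 0.947. Over the 12650 genes tested, the 4 arrays of Hes5 replicates 1 and 3, in both fractions, were set against the 14 other arrays. They lay over 1 log2 unit above all 14 in 79 genes and below them in 23. The 14 include both fractions of Hes5 replicate 2, so by this rule they lay on the side of the Nurr1 and Pitx3 lines. Counts for other sets of 4 arrays are not given. Cops8, a subunit of the COP9 signalosome, read 10.87, 5.50 and 10.83 in Hes5 negative replicates 1 to 3, 10.66, 6.09 and 10.58 in the Hes5 positive arrays, and 5.62 to 5.91 in Nurr1 negative cells. Erdr1 was the reverse, at 5.39, 12.45 and 5.95 in Hes5 negative and 5.56, 12.55 and 6.42 in Hes5 positive cells, against 11.94 to 12.18 in Nurr1 negative cells. Tomm22, a receptor of the mitochondrial import machinery, read 10.85, 6.60 and 10.28 in Hes5 negative and 6.84 to 6.90 in Nurr1 negative cells. These genes were chosen after their values were seen and are given as a description, without a test. Counts of calls, and the list medians below that moved by over 1.5 times without this array, are given both ways, apart from medians within 0.1 of 0.

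With all 6 arrays, 7 genes were called (0.0553% of the genes tested), all lower in Nurr1 negative cells. No gene was called higher by limma. At an unadjusted p under 0.05, 819 genes differed (6.47%), 442 of them higher. The groups did not overlap in 640 genes that were higher (5.06%) and 396 that were lower (3.13%). The 7 genes were Pou6f1, Plk1, Grb10, Picalm, D830030K20Rik, Arhgap12 and Ctsc. All 7 were also called, in the same direction, in the comparison of Nurr1 positive with Hes5 positive cells, where 53 genes were called (0.419%), 13 higher (0.103%) and 40 lower (0.316%). In each of the 7, Hes5 negative replicate 2 lay nearer to the other Hes5 negative arrays than to the Nurr1 negative mean. That is in part built in, since the 7 were called with replicate 2 in its group. None of the 7 was called in the test of whether the difference between the lines was another in negative than in positive cells. That does not show that the differences were equal in both fractions.

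Pou6f1, a POU homeobox transcription factor, read 8.67, 8.56 and 9.10 in Hes5 negative replicates 1 to 3 and 4.53, 4.66 and 4.83 in Nurr1 negative replicates 1 to 3. It was above background in all 3 Hes5 negative arrays and in no Nurr1 negative array. The fitted difference was -4.10 (SE 0.25, limma adjusted p = 6.6e-07), which stands for at least 7.84-fold, since the lower group gives only a bound. A bound of this kind sets the brighter group's mean against, on each dim array, the lowest signal among probes above background or the probe's own, whichever is higher. In the positive fractions Pou6f1 read 9.22 to 10.44 in the Hes5 line and 4.47 to 4.81 in the Nurr1 line, and in Pitx3 negative cells 4.53 to 4.77. Its RNA was above background in arrays of the Hes5 line alone. It was read by 1 probe.

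Grb10 was low in the Nurr1 line alone. Grb10 is an adaptor protein that binds the insulin and IGF1 receptors and dampens their signal. Its gene is imprinted, read from the maternal allele in most tissues and from the paternal allele in neurons, through different promoters. It read 12.36, 11.77 and 12.78 in Hes5 negative cells and 9.41, 8.24 and 9.06 in Nurr1 negative cells. The groups did not overlap, and all 6 values were well above background. The difference was -3.40 (SE 0.31, adjusted p = 1.2e-04), or 10.5-fold lower. Pitx3 negative cells read 11.84 to 11.99, next to the Hes5 line. In positive cells the difference was -5.16, with 6.99 to 7.72 in the Nurr1 line. A second kept probe gave -2.30 in negative cells, in the same direction.

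Because Grb10 and Pou6f1 were each high or low in 1 whole line, the 250 bases before their annotated starts are shown, from RefSeq (build GRCm38.p6), with the dinucleotide CG, where DNA methylation is placed, in capitals. The arrays measured neither methylation nor start site use, so the sequences describe the genes and carry no result. All 3 windows are on the minus strand and are written 5′ to 3′ along the gene.
Grb10 upstream start, chr11:12037421-12037670: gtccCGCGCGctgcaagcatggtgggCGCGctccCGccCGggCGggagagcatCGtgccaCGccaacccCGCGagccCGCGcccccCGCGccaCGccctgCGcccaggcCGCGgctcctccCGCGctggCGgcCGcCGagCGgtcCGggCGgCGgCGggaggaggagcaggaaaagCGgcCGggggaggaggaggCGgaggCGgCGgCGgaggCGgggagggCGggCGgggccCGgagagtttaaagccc
Grb10 downstream start, chr11:12027972-12028221: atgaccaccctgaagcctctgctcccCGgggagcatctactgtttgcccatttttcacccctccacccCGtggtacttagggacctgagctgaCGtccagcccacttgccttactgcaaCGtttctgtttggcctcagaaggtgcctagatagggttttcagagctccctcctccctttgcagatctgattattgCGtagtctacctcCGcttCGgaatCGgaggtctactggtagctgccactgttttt
Pou6f1 start, chr15:100599985-100600234: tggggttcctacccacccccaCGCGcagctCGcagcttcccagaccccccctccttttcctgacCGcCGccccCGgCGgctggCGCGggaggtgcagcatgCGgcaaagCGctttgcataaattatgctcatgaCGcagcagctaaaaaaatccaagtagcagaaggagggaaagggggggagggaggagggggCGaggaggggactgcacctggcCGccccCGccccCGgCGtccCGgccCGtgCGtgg
The upstream Grb10 window holds 40 CG, a number that 1.3% of the 32851 RefSeq promoter windows of this length reach. The downstream Grb10 window holds 8 CG, which 43.0% of windows reach, and the Pou6f1 window 20, which 17.9% reach. The count was made on 1 strand, since CG reads the same on both.

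**Figure D1:**
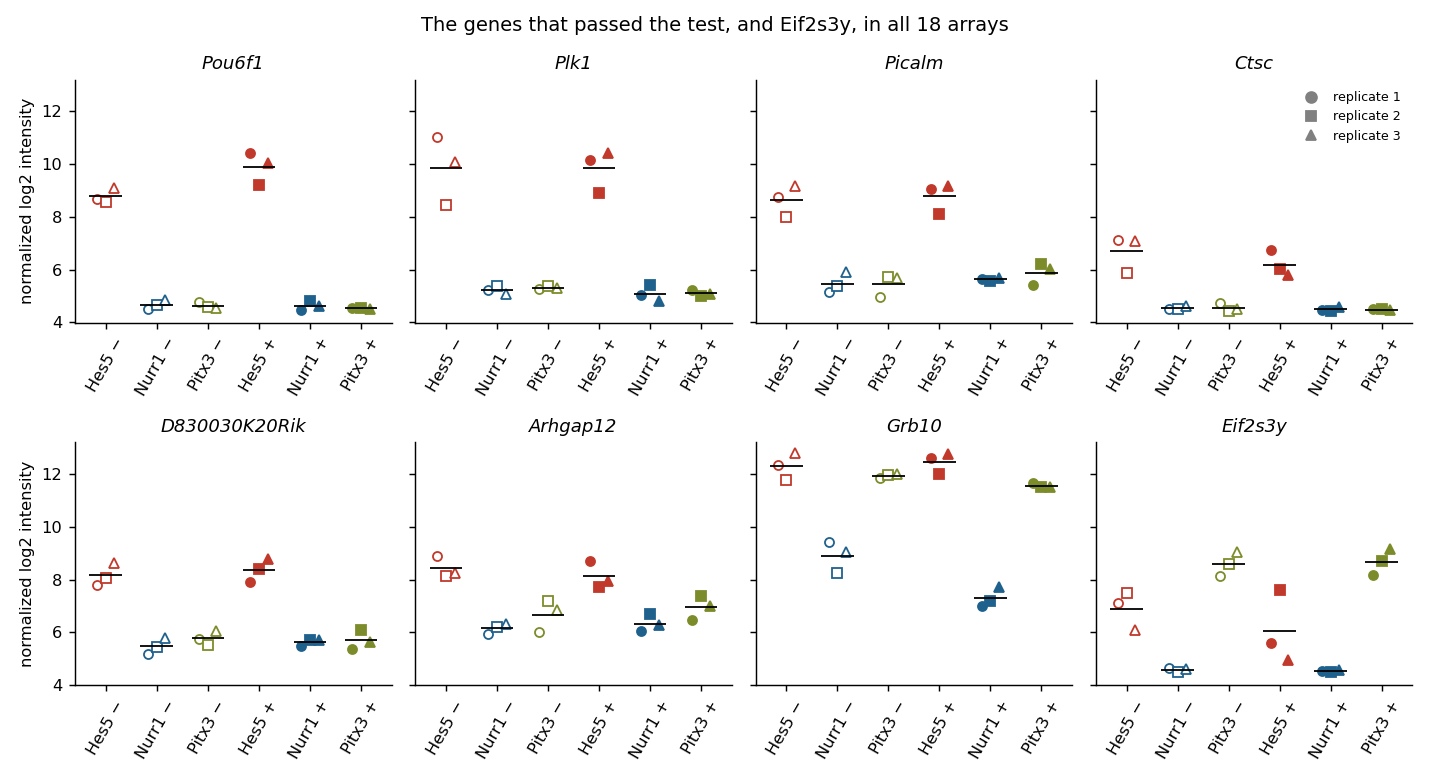
The 7 genes that passed the test and Eif2s3y, with normalized log2 intensity on the vertical axis and the 6 groups on the horizontal axis. Points are arrays (open for negative, filled for positive cells, the shape gives the replicate) and lines are group means; Grb10 is low only in the blue Nurr1 arrays, while Pou6f1 and Plk1 are high only in the red Hes5 arrays.

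Plk1, a kinase that drives entry into and passage through mitosis, gave the largest fitted difference, -4.62 (SE 0.48, adjusted p = 3.3e-04), at least 16.6-fold. It read 11.03, 8.46 and 10.07 in Hes5 negative and 5.23, 5.39 and 5.07 in Nurr1 negative cells, where no array was above background. The Nurr1 positive and all Pitx3 arrays were at the same low level, 4.83 to 5.41. Of the 12 cell cycle genes tested, Plk1 alone was called, 10 were lower (5757 of all 12650 genes), and the median difference was -0.38 (0.03 over all genes). Without Hes5 negative replicate 2 all 12 were lower, the median was -0.86 and Plk1 was again the gene called. With that array left out 8 of the 12 were lower without overlap, beside 14.1% of all genes. Mki67, the proliferation marker, read 10.19, 9.31 and 10.32 in Hes5 negative and 10.55, 9.80 and 9.67 in Nurr1 negative cells, and Aurka, another mitotic kinase, 10.64, 8.87 and 9.67 against 9.53, 9.46 and 8.71. Both overlapped between the groups, and the Plk1 value comes from 1 probe.

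Picalm, a clathrin assembly protein of endocytosis, read 8.77, 8.0 and 9.18 in Hes5 negative and 5.14, 5.38 and 5.90 in Nurr1 negative cells. The groups were over 2 log2 units apart, and 1 of the 3 Nurr1 negative arrays was above background. The difference was -3.17 (SE 0.35, adjusted p = 5.1e-04). Ctsc, which encodes the lysosomal protease cathepsin C, read 7.12, 5.89 and 7.08 against 4.49, 4.50 and 4.61, with no Nurr1 negative array above background. Its difference was -2.16 (SE 0.28, adjusted p = 0.0036), at least 1.86-fold, and a second kept probe gave -1.21. D830030K20Rik, named because a count of all 7 genes needs it, read 7.81, 8.07 and 8.64 against 5.17, 5.44 and 5.78. Its difference was -2.71 (SE 0.27, adjusted p = 2.4e-04), and a second kept probe gave -0.97. Arhgap12, a GTPase-activating protein, read 8.91, 8.15 and 8.23 against 5.93, 6.20 and 6.32. Its difference was -2.28 (SE 0.34, adjusted p = 0.016), and it was no longer called without any 1 of the other 5 arrays (adjusted p 0.0607 to 0.153), though it was without Hes5 negative replicate 2 (0.0194). Ctsc, Picalm and Plk1 lie on chromosome 7, Pou6f1 on 15, Grb10 on 11, D830030K20Rik on 14 and Arhgap12 on 18 in the RefSeq table. With gaps over 1 log2 unit, 6 genes set all 6 Hes5 arrays above all 12 arrays of the other lines and 0 set them below: Pou6f1, Plk1, Picalm, Ctsc, D830030K20Rik and 2610305J24Rik, the last of which was named after its values were seen and was not called (-3.87, adjusted p = 0.326).

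Without Hes5 negative replicate 2, 240 genes were called (1.9%), 74 higher (0.585%) and 166 lower (1.31%) in Nurr1 negative cells. All 7 genes were among them. In this fit 2 Hes5 negative arrays stand against 3, and the spread still comes from all groups. Of the 240 genes, 228 had replicate 2 nearer to the Nurr1 negative mean than to replicates 1 and 3 (95%), against 72.2% of all genes. That share is in part built in, since the genes were called with replicate 2 left out. In the positive fractions, which the call did not use as a contrast, Hes5 replicate 2 was nearer to the Nurr1 mean in 189 of the 240 (78.8%), against 53.3% of all genes. This share is not independent of the call either, since same-numbered fractions of a line deviated together (correlations of 0.438 to 0.772). Among the 240 were genes in which both fractions of Hes5 replicate 2 were unlike replicates 1 and 3, such as Cops8 (-5.04, adjusted p = 0.029) and Erdr1 (6.41, adjusted p = 0.036). Timmdc1, an assembly factor of mitochondrial complex I, was called higher in that fit (2.20, adjusted p = 0.0093). It read 7.41, 8.60 and 7.35 in Hes5 negative and 9.69, 9.61 and 9.42 in Nurr1 negative cells, without overlap. With all 6 arrays its difference of 1.79 was not called (adjusted p = 0.171), while in positive cells 1.76 was (adjusted p = 0.038).

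**Figure D2:**
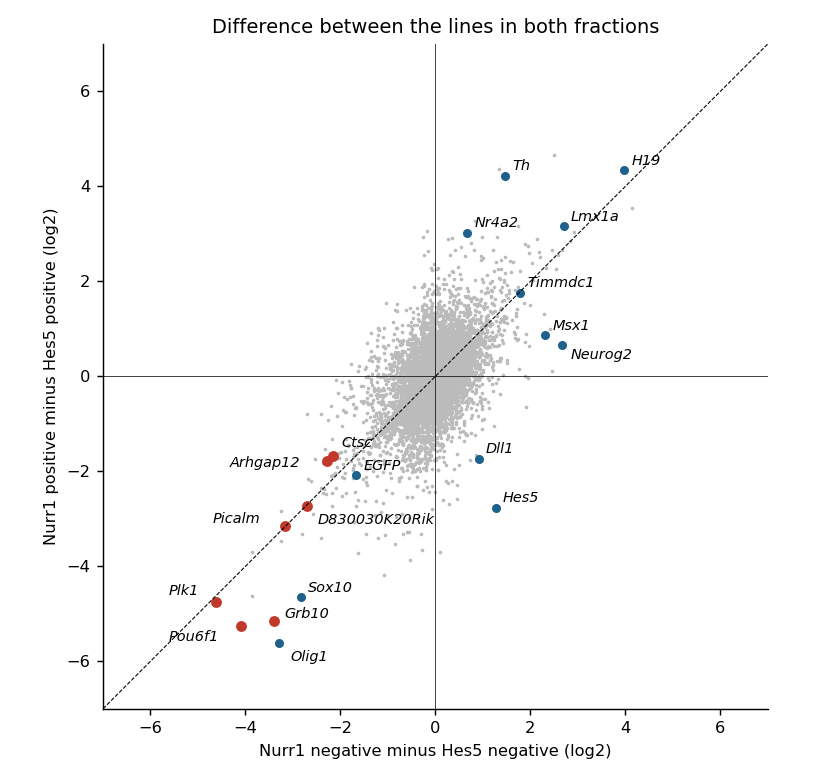
Difference between the lines in negative cells (horizontal axis, log2) against that in positive cells (vertical axis, log2), 1 point per gene tested, with the line of equality dashed. The 7 called genes (red) are below 0 on both axes. Ctsc, at -2.16 and -1.68, is the nearest of them to 0 on both axes. Plk1, at -4.62 and -4.75, is the farthest on the horizontal axis, and Pou6f1, at -4.10 and -5.27, on the vertical axis. Hes5 lies at 1.27 in negative and -2.76 in positive cells.

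The reporter genes show what each sort left behind. The EGFP probe read 9.51, 11.12 and 8.48 in Hes5 negative and 7.70, 7.95 and 8.48 in Nurr1 negative cells, a difference of -1.66 that was not called (adjusted p = 0.76) and was -0.95 without replicate 2. Hes5 itself read 9.71, 11.15 and 9.51 in Hes5 negative and 11.12, 11.39 and 11.66 in Nurr1 negative cells. The difference was 1.27 (SE 0.59, adjusted p = 0.76), or 1.78 without replicate 2 (adjusted p = 0.159), and only replicate 2 of the Hes5 line reached the Nurr1 values. Nr4a2 read 5.25, 8.23 and 8.06 against 7.19, 7.82 and 8.54, and Pitx3 was above background in 1 of 3 arrays of each group. Nr4a2 overlapped between the groups. Each BAC can carry genes that lie next to its reporter gene. Of the 10 nearest neighbours of Hes5, 4 were tested and none was called: Prxl2b (0.02), Pank4 (-0.50), Plch2 (-0.59) and Rer1 (0.05). None of the 10 nearest neighbours of Nr4a2 was measured here.

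Midbrain floor plate genes were higher in Nurr1 negative cells in 13 of the 15 tested, beside 54.5% of all genes, with a median of 0.83, but none was called. In 5 the groups did not overlap, all higher, beside 5.06% of all genes. Lmx1a, the LIM homeobox factor that sets the dopaminergic lineage, read 5.49, 10.29 and 10.80 in Hes5 negative and 12.06, 11.25 and 11.38 in Nurr1 negative cells. Hes5 negative replicate 1 was at the foot of the range, and the difference of 2.70 had an SE of 1.45 (adjusted p = 0.807). Msx1, a homeobox factor of the same progenitors, read 5.81, 9.15 and 9.94 against 11.58, 10.10 and 10.17 (2.32, SE 1.07). Corin, a surface protease of the floor plate, read 9.31, 12.58 and 12.34 against 13.05, 12.77 and 12.95. Again Hes5 negative replicate 1 was lowest by a wide margin, and replicates 2 and 3 lay just under the Nurr1 arrays. The list median was 1.26 without replicate 2, and ran from 0.46 to 1.26 with any 1 array of the series left out. The same list had a median of 0.86 in positive cells. Its level was low in replicate 1 of both Hes5 fractions. The median level was 7.71, 10.29 and 9.94 in Hes5 negative replicates 1 to 3. In Hes5 positive replicates 1 to 3 it was 7.02, 10.80 and 10.05. Rspo2, a Wnt enhancer (1.91), and Wnt1 (1.46) overlapped between the groups.

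Proneural genes were higher in all 10 tested, with a median of 0.91 and 5 without overlap, and none was called. Of the 10, 1 was above background in none of the 6 arrays, so its direction carries no weight. Over all genes 54.5% were higher and 5.06% were higher without overlap. Neurog2, which commits progenitors to neurons, read 5.98, 7.96 and 9.93 in Hes5 negative and 11.89, 10.20 and 9.76 in Nurr1 negative cells (2.66, SE 0.87, adjusted p = 0.76). Replicate 3 of each group overlapped. Ebf3, a helix-loop-helix factor of new neurons, gave 1.31, Ebf2 1.04 and Myt1, a zinc finger factor of neurogenesis, 0.97, all without overlap. Of 13 Notch pathway genes, 9 were higher (69.2%, against 54.5% of all genes) and 4 of them did not overlap (5.06% of all genes): the receptor Notch1 (0.60), the ligands Dll1 (0.91) and Dll3 (0.83, at least 1.52-fold), and the glycosyltransferase Mfng (1.22). Dll1 read 8.59, 8.47 and 8.91 in Hes5 negative and 9.97, 9.67 and 9.06 in Nurr1 negative cells. In positive cells the Notch list had a median of -1.17, with 2 of 13 higher. Hes5 (1.27) is among the 9 higher in negative cells. Its own reporter set the sort of the Hes5 line, so the list is not independent of that sort. The change of direction was not tested for the list.

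**Figure D3:**
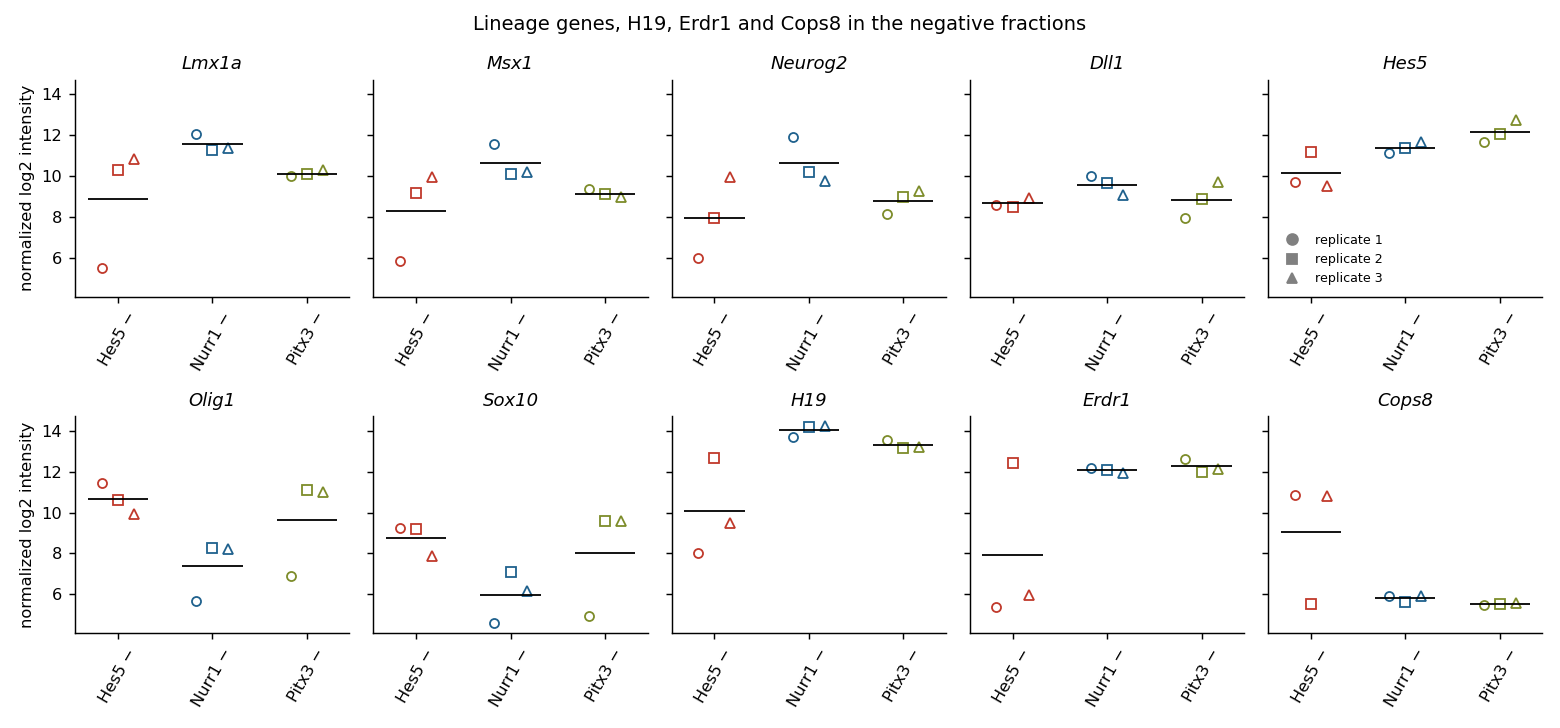
Normalized log2 intensity (vertical axis) of 10 genes in the 3 negative groups (horizontal axis); points are arrays with the shape giving the replicate, lines are group means. Lmx1a, Msx1 and Neurog2 are lowest in Hes5 negative replicate 1, Olig1 and Sox10 are lower in all Nurr1 negative arrays than in all Hes5 negative arrays, and Erdr1 and Cops8 set Hes5 negative replicates 1 and 3 apart from the other 7 arrays.

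Most glial lineage genes tested pointed the other way, though the level of their list overlapped between the groups. Olig1, a factor of oligodendrocyte precursors and ventral progenitors, read 11.43, 10.64 and 9.93 in Hes5 negative and 5.64, 8.27 and 8.22 in Nurr1 negative cells. The groups did not overlap, but the difference of -3.29 (SE 1.15) was not called (adjusted p = 0.76), nor was it without replicate 2 (-3.30, adjusted p = 0.235). Sox10, a factor of oligodendrocytes and neural crest, read 9.26, 9.20 and 7.86 against 4.57, 7.08 and 6.17 (-2.84, SE 1.10). In positive cells the Olig1 difference was -5.62 and was called (adjusted p = 0.049). In Pitx3 negative cells Olig1 was as high as in Hes5 negative cells in replicates 2 and 3 (up to 11.10) and low in replicate 1 (6.88), while Pitx3 positive cells read 5.21, 7.13 and 8.15. The list of astrocyte and oligodendrocyte genes had 6 of 7 lower (5757 of all 12650 genes), with a median of -0.82, and Gfap overlapped (0.24). Of the 7, 3 were above background in all 6 arrays. The median level of the list was 7.40, 8.75 and 7.73 in Hes5 negative replicates 1 to 3. In Nurr1 negative replicates 1 to 3 it was 5.64, 8.27 and 8.22, so replicate 1 alone lay below all Hes5 negative arrays. Among 5 neural crest genes Sox10 alone did not overlap (3.13% of all genes were lower without overlap), and their median was -0.21 (-0.06 without replicate 2). Of 10 radial glia and neural stem cell genes 5 were higher, with a median of -0.04 (0.17 without replicate 2). Nes, the progenitor filament nestin, gave 1.02 without overlap, and Sox2 0.17.

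Pluripotency genes depended on Hes5 negative replicate 2. With all arrays, 15 of 17 were lower in Nurr1 negative cells, with a median of -1.23, none was called and none of the 15 was free of overlap. Pou5f1, the stem cell factor Oct4, read 10.91, 5.74 and 9.20 in Hes5 negative and 7.62, 7.03 and 6.65 in Nurr1 negative cells. Nanog read 10.15, 6.57 and 9.96 against 8.80, 7.19 and 7.70. In both, replicates 1 and 3 of the Hes5 line were above all Nurr1 arrays and replicate 2 below them. Without replicate 2 the median was -2.36, and 14 of 17 were lower without overlap (14.1% of all genes). In that fit 3 were called, beside 1.31% of all genes called lower. These were L1td1 (-3.98, adjusted p = 0.029), the RNA-binding protein Lin28a (-2.45, adjusted p = 0.029) and the chromatin factor Utf1 (-3.83, adjusted p = 0.036). Each of the 3 was above background in 1 of 3 Nurr1 negative arrays, so the size of these differences rests partly on values at background. Eras, Gdf3 and Nodal, stem cell genes outside the list that were chosen after their values were seen, were called with them (-2.95, -2.89 and -2.70). The summed intensity of the list was 5431 to 16151 in Nurr1 negative arrays and 2655 to 49170 in Hes5 negative arrays. All 3 Nurr1 negative arrays had 12 to 16 of the 17 above background.

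**Figure D4:**
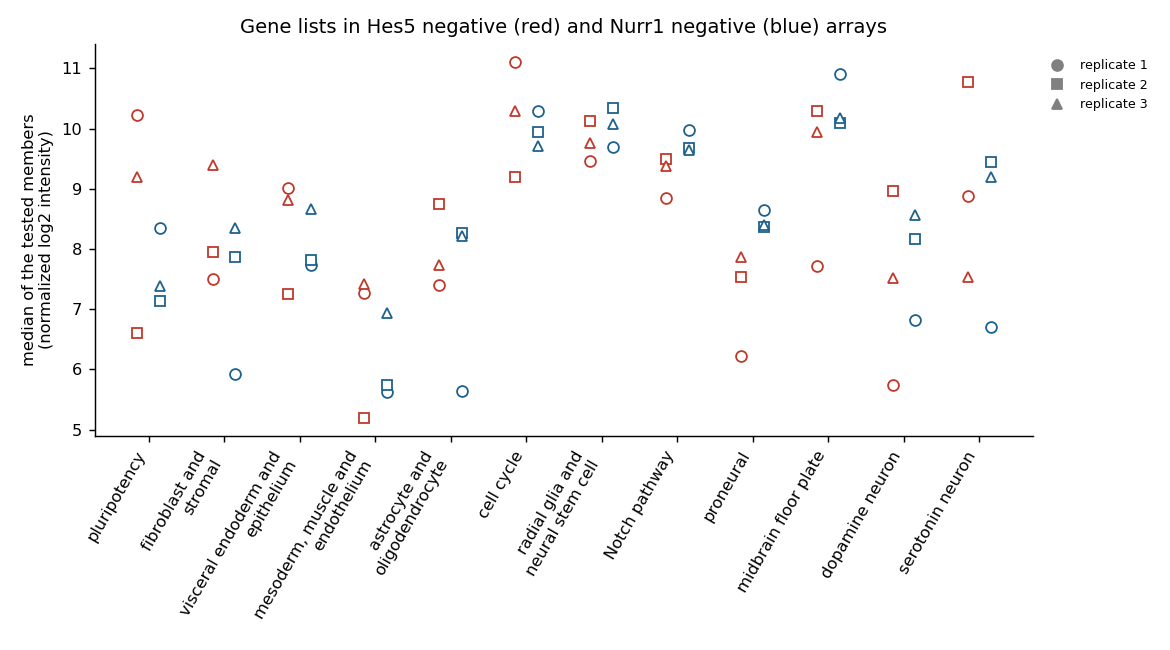
Median normalized log2 intensity over the tested members of 12 gene lists (horizontal axis) in each Hes5 negative array (red) and Nurr1 negative array (blue), the shape giving the replicate. The proneural medians separate (6.22 to 7.87 against 8.37 to 8.65), while for pluripotency Hes5 negative replicate 2 (6.61) lies below and replicates 1 and 3 lie above all Nurr1 negative arrays.

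The medians of the non-neural lists were near 0 or below it, and none of their genes was called with all arrays. Of 14 fibroblast and stromal genes 11 were lower, with a median of -0.53. Thy1, a surface glycoprotein, read 8.74, 6.42 and 7.32 in Hes5 negative and 5.93, 5.05 and 4.90 in Nurr1 negative cells. It was the member without overlap (-2.20), and it was called without replicate 2 (-2.74, adjusted p = 0.037). Over all genes, 3.13% were lower without overlap, and 1.31% were called lower without replicate 2. The matrix genes Col1a1 (-0.92), Lum (-1.49) and Tgfbi (-1.36) overlapped, and in each the lowest value was Nurr1 negative replicate 1. Visceral endoderm and epithelial genes had 6 of 13 higher and 7 lower, with a median of -0.01. Within that list the basement membrane genes Col4a1 (0.39) and Col4a2 (0.64), both on chromosome 8, and Lama1 (0.70) were higher on average and overlapped. The tight junction gene Cldn6 read 11.29, 6.89 and 9.15 against 7.73, 6.59 and 7.11. Amn, of the same list, was lower, at -1.28 to -1.02 over the alternatives other than leaving out an array. Foxa1, also a floor plate gene, gave 0.96 without overlap. In the list 1 member was higher and 1 lower without overlap. Of 5 mesoderm, muscle and endothelium genes, the muscle genes Actc1 (-0.85) and Myl4 (-1.36) did not overlap, beside 3.13% of all genes lower without overlap. Myl4 and Des were called without replicate 2 (-1.83 and -1.66), beside 1.31% of all genes called lower. The summed level of this list was 245 to 1036 in Nurr1 negative and 327 to 1099 in Hes5 negative arrays. Of 2 blood and immune genes tested, Cd68 was above background in 2 Hes5 negative arrays and Lyz2 in 1 Nurr1 negative array, and what share these cells have in any result was not tested.

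No gene of the neuron type lists was called, with or without replicate 2. The serotonin neuron list had 0 of 11 higher and a median of -0.49, which turned to 0.31 without Hes5 negative replicate 2. Tph2, the enzyme that starts serotonin synthesis in neurons, read 8.88, 11.79 and 8.19 in Hes5 negative and 6.71, 9.74 and 10.17 in Nurr1 negative cells. The dopamine neuron list had a median of -0.10, and 0.79 without replicate 2. Th, the rate-limiting enzyme of dopamine synthesis, read 4.84, 10.17 and 8.90 against 7.96, 10.21 and 10.12. The spread within each group was larger than the distance between them. Of 8 pan-neuronal genes 7 were higher, with a median of 0.24. Without replicate 2 all 8 were higher, 2 without overlap (17.6% of all genes), with a median of 0.73. The GABA neuron list (8 genes, -0.13), the motor and cholinergic list (5 genes, -0.06) and the forebrain and hypothalamus list (4 genes, -0.37) held no called gene. Without replicate 2 the forebrain and hypothalamus genes were all lower, 2 without overlap (14.1% of all genes), with a median of -0.92. Among 10 hindbrain and Hox genes Hoxb2 (-1.14) and Hoxb4 (-1.21) were lower without overlap (3.13% of all genes), and the list's median was -0.57 (-0.15 without replicate 2). In the list of ventral and dorsal patterning genes, Irx3 (0.98) and Irx5 (0.90), Iroquois homeobox genes on chromosome 8, were higher without overlap (5.06% of all genes). The 7 others overlapped. The immediate early list (9 genes) had a median of 0.33, and the amino acid stress list (14 genes) one of -0.01. The hypoxia and glycolysis list (12 genes) had one of -0.12, which was -0.79 without replicate 2.

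Imprinted genes did not share a direction. Of 23 tested, 12 were higher and 11 lower, with a median of 0.03 (0.18 without replicate 2), and Grb10 alone was called. H19, a maternally expressed long non-coding RNA, read 8.01, 12.69 and 9.50 in Hes5 negative and 13.71, 14.19 and 14.23 in Nurr1 negative cells. Its groups did not overlap, and a second probe gave 4.13 beside 3.98. The difference was not called with all arrays (SE 1.27, adjusted p = 0.76) and was called without replicate 2 (5.29, adjusted p = 0.044). Igf2, its paternally expressed neighbour, read 13.82, 15.04 and 14.97 against 13.94, 14.51 and 14.53 (-0.28). Usp29 read 6.38, 10.67 and 6.99 against 9.14, 10.17 and 10.39, with replicate 2 again apart, and was called without it (3.22, adjusted p = 0.029). Peg3, from the same imprinted domain as Usp29, gave 1.09, Kcnq1ot1, an imprinted antisense RNA, 1.07, and Impact 0.40, all without overlap. Of the 23 genes, 4 were higher without overlap (5.06% of all genes) and 2 lower (3.13%). Phlda2, a placental growth gene, was called lower without replicate 2 (-2.66, adjusted p = 0.035). In that fit 4 of the 23 were called, beside 1.9% of all genes. Beside Grb10, the insulin and growth factor adaptor list had a median of 0.01 over 13 genes, with no other call, and its relative Grb14 gave 0.44. Beside Pou6f1, the other 7 POU factors tested ranged from -1.52 (Pou5f1) to 0.71 (Pou4f1).

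The Y-linked translation factor gene Eif2s3y read 7.11, 7.49 and 6.10 in Hes5 negative and 4.64, 4.51 and 4.59 in Nurr1 negative cells. No Nurr1 array of either fraction was above background, and Pitx3 negative arrays read 8.15 to 9.04. The difference of at least 2.14-fold was not called (-2.32, SE 0.52, adjusted p = 0.349). Ddx3y, another Y-linked gene, read 8.54, 7.66 and 8.98 in Nurr1 negative and 8.86, 9.16 and 8.75 in Hes5 negative cells.

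Genes on chromosome 8 were higher in Nurr1 negative cells as a body. This was looked for after the other results had been seen, and is a description. Of the 12650 genes, 9362 had a chromosome in the RefSeq table. Over the 552 on chromosome 8 the median difference was 0.29, or 1.22-fold, against -0.04 to 0.06 on each of the 19 other chromosomes. Higher values were found for 79.2% of chromosome 8 genes and 51.2% of the others. The groups did not overlap in 48 chromosome 8 genes that were higher (8.70%, against 4.64% elsewhere) and 7 that were lower. The shift was 0.16 in the dimmest 184 genes, 0.29 in the middle 184 and 0.34 in the brightest 184. Well-expressed examples were Tecr, a fatty acid elongation enzyme (0.50), and Got2, the mitochondrial aspartate aminotransferase (0.42). Positive cells gave a median of 0.29 for the chromosome as well.

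The chromosome 8 level was low in Hes5 replicates 1 and 3 alone. Relative to all genes, the chromosome stood at -0.31 and -0.36 in Hes5 negative replicates 1 and 3 and at -0.34 in the same replicates of Hes5 positive cells. Hes5 replicate 2 stood at 0.13 in negative and 0.09 in positive cells. The Nurr1 and Pitx3 arrays lay between 0.06 and 0.14. Set against replicate 1 alone, Nurr1 negative cells were higher by a median of 0.47 on chromosome 8, against replicate 3 by 0.45, and against replicate 2 by -0.02. Without replicate 2 the median was 0.44, and 17 of the 50 genes called higher that have a chromosome lay on chromosome 8, as did 2 of 125 called lower. Of all genes tested that have a chromosome, 5.9% lie on chromosome 8. The 17 include Ap1m1, a clathrin adaptor subunit (0.91), and Ist1, an endosomal sorting factor (0.83). Arv1, also on chromosome 8 and involved in sterol transport, went the opposite way. It read 8.66, 4.58 and 7.99 in Hes5 negative and 4.63, 4.62 and 4.74 in Nurr1 negative cells. DNA copy number was not measured, and its part in the shift was not tested.

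**Figure D5:**
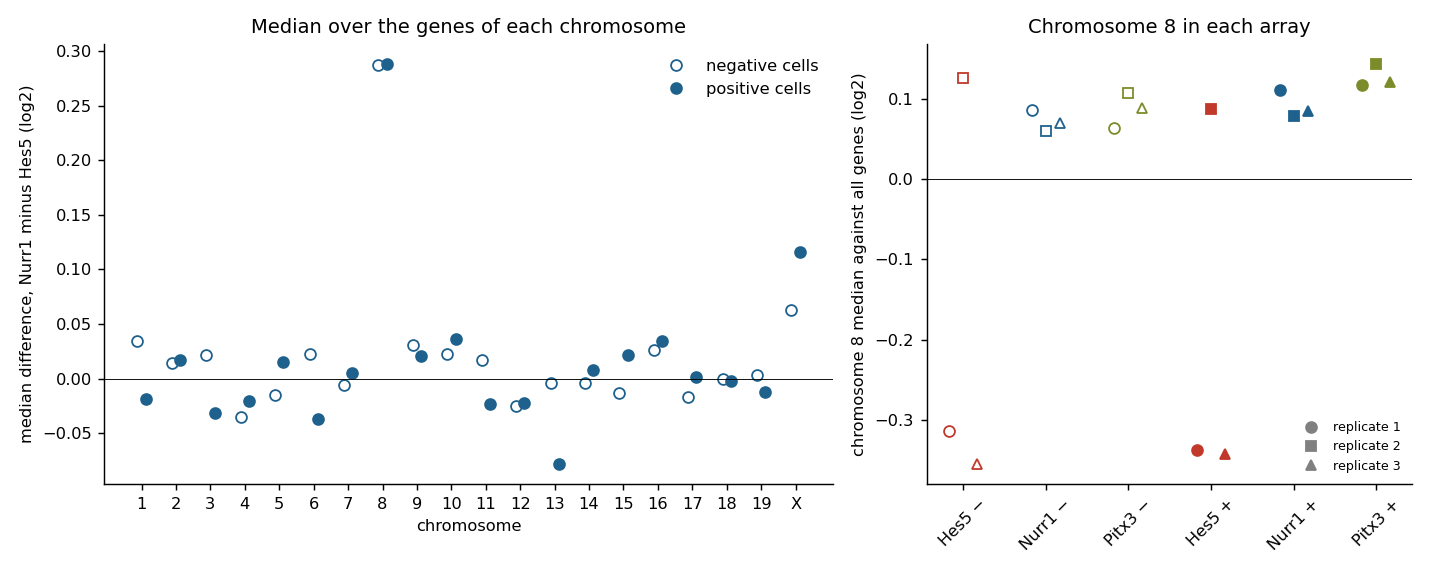
Left, the median difference between the lines (vertical axis, log2) over the genes of each chromosome (horizontal axis) in negative (open) and positive (filled) cells; chromosome 8 stands at 0.29 in both. Right, the chromosome 8 median against all genes (log2) in each of the 18 arrays by group: replicates 1 and 3 of both Hes5 groups lie between -0.36 and -0.31, and all other arrays, Hes5 replicate 2 included, between 0.06 and 0.14.

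Whether the lines differed by another amount in negative than in positive cells was tested as the difference of both differences. It called 1 gene of 12650 (0.00791%), LOC327816, and none when the replicate number within each line was added as a fixed block. With the number as a random block within each line it called 125 genes, and with array weights 27, so the count depends on the fit. Hes5 differed by 1.27 in negative and -2.76 in positive cells, a change that was not called (4.03, adjusted p = 0.429, with the block 0.0705). Dll1 (0.91 and -1.74) gave an adjusted p of 0.453, and 0.0702 with the block. For Grb10 (-3.40 and -5.16) the change was 1.76, with a limma adjusted p of 0.674, and 0.0713 with the block. For Pou6f1 (-4.10 and -5.27) it was 1.16, with 0.908, and 0.113 with the block.

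The Pitx3 negative cells place the differences among 3 lines. Against Hes5 negative cells they had 8 genes called (0.0632%), all lower, and against Nurr1 negative cells 2 (0.0158%), both higher. These comparisons share arrays with the one above. Pou6f1 gave -4.15 between Pitx3 and Hes5 negative cells, like the -4.10 between Nurr1 and Hes5 negative cells, while Grb10 gave -0.37 and 3.03 against the Hes5 and Nurr1 lines. The chromosome 8 median was 0.29 between Pitx3 and Hes5 negative cells and -0.02 between Pitx3 and Nurr1 negative cells. The floor plate list had a median of 0.46 and the pluripotency list one of -2.24 between Pitx3 and Hes5 negative cells.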

How the data were processed

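Per the file headers, the deposited table of probes holds a linear intensity (mean over beads) for 45281 probes on 18 arrays, with a detection p-value and a bead count for each. Another deposited file gives log2 intensity for 31441 genes; set against the probes, its values are the log2 of the mean of 1 to 3 probes, with no normalization between arrays. GenomeStudio and Partek are named in the submitters' processing notes. Another 18 columns of per-array values were not used. Probes were named by finding those whose intensities give a gene's deposited log2 values on all arrays (30328 genes, 96.5%, within 7e-06 below 10 and 6e-05 from 10). RefSeq gave 13415 names as symbols and 5594 as synonyms, and 12432 were kept.

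Intensities were background-corrected and quantile normalized with limma 3.58.1 (neqc, offset 16, R 4.3.3, data.table version 1.17.8). Probes with a detection p-value under 0.01 in 3 or more arrays were kept (18737, of which 2503 have no gene), and the brightest stood for its gene. One limma fit (lmFit and eBayes, two-sided) of 6 group means left 12 residual degrees of freedom. On simulated data it recovered 78% of 4-fold and 96% of 8-fold changes with 10 false calls over 12650 genes. The simulated errors were independent between arrays, with 1 spread per gene. The real arrays were not independent, as given below, and 1 stood apart from its group. The rates therefore describe the simulated arrays and may not hold for the real ones. Python 3.11.15, numpy 2.4.6, pandas 2.3.3, numba 0.67.0 and matplotlib 3.10.9 were also used.

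Deviations from group means correlated at 0.438 to 0.772 between fractions of 1 line with the same number, and at -0.245 to 0.23 between same-numbered negative arrays of both lines, so the numbers pair fractions and not lines. No label says that replicates are separate cultures, so p-values reflect array-to-array spread that may be technical. Named genes are the reporter genes, Grb10, Pou6f1, called genes, the 12 largest rises and falls without overlap, up to 4 members a list and reporter neighbours, leaving out clone names; others are said to be chosen after their values were seen or come from a list. Members and the 27 lists were chosen with earlier results of these data known. Alternatives covered background, normalization, filter, probe choice, arrays in the fit, moderation, weights, blocks and single arrays left out.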

Additional observations from a re-analysis of the deposited data

Results flagged for a closer look

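LOC327816 was the gene whose difference between the lines was called different in negative and positive cells (1.52 on the log2 scale, SE 0.19, limma adjusted p = 0.0146). It read 6.02, 5.89 and 6.36 in Hes5 positive cells and 4.48 to 4.64 in all 6 negative arrays of both lines. It was 4.56 to 4.78 in Nurr1 positive cells. With the replicate number as a block within each line it was not called (adjusted p = 0.0607).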

How the results depend on the processing

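Over the alternatives other than leaving out an array, 5 to 9 genes were called in 10 of 12, against 7. The exceptions were the 6 arrays fitted alone, which called 1 (Pou6f1), and array weights, which called 1268, and the cause was not tested. With 1 array left out the count ran from 6 to 240. Pou6f1 was called under every alternative and Grb10 under all but the 6 arrays alone (adjusted p = 0.172). Arhgap12 and Ctsc were not called in the deposited log2 table (adjusted p = 0.325 and 0.15). With the replicate number as a block across lines 8 genes were called, the 7 among them. The difference between the fractions called 1 gene, but 0 without background correction, in the deposited table, with probes above background in 3 of the 6 arrays, with the 12 arrays of both lines, with an intensity trend and robust spread, and with the replicate block within a line. In those and the single-array fits that called 0, limma gave 356 to 1917 genes at an unadjusted p under 0.05. It called 27 with array weights and 125 with the replicate number as a random block within a line (correlation 0.595). Leaving out 1 array gave 0 to 2. The fixed block within lines, arrays of other groups left out, and the chromosome 8 and overlap counts were added after seeing the data. Leaving out 1 of the 6 arrays gave 1159 to 2229 genes without overlap that were higher and 674 to 1779 lower, the most without Hes5 negative replicate 2. The deposited table gave 138 lower, and no filter on dim probes 1542 higher and 1291 lower. The chromosome 8 median was 0.19 to 0.44 over all alternatives, and list medians moved by less than the spread between arrays except those near 0. Slide as a block was not run, since the files name no slide. Folds are given as bounds for genes at background on all 3 arrays of a group; where only 1 or 2 arrays were above background, the printed difference includes values at background.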

Other observations

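Among genes that no list covered, the largest differences without overlap included Dmrta2, a zinc finger factor of neural progenitors, which read 6.82, 10.63 and 11.36 in Hes5 negative and 13.03, 11.87 and 11.92 in Nurr1 negative cells (2.67, adjusted p = 0.774). The sodium channel gene Scn11a was not above background in any Hes5 negative array and differed by at least 2.48-fold (1.88, adjusted p = 0.757). The neuropeptide gene Cartpt gave 1.96, and the thyrotropin-releasing hormone gene Trh -2.06 (11.70, 10.93 and 9.33 in Hes5 negative against 9.11, 8.45 and 8.21 in Nurr1 negative cells). Rgcc, a regulator of the cell cycle, gave -1.88. None of these 5 genes was called with all 6 arrays or without Hes5 negative replicate 2. Apoc1 and Ooep, chosen after their values were seen, were called lower without that array (-3.06 and -3.09), and both read at or just under the Nurr1 negative values in it.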
